A study of Mus musculus with 13 samples.

Results

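The nuclear-encoded subunits of oxidative phosphorylation were described in liver tumours of mir-122 knockout mice and in livers of wild-type controls. Members were all genes whose symbol in the array's annotation begins with Ndufa, Ndufb, Ndufc, Ndufs or Ndufv and a digit, with Uqcr, with Cox4 to Cox8 or with Atp5, or is Sdha, Sdhb, Sdhc or Sdhd. Only probe sets that name 1 gene were used, and each gene was read by its probe set with the highest mean over all 13 arrays. This gave 81 of 18193 genes, with 35 in complex I, 4 in complex II, 8 in complex III, 17 in complex IV and 17 in complex V. The rule for the genes reads symbols and no measured value, while each probe set was picked by its level.

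The study collected 8 tumours of mice that lack mir-122, a microRNA abundant in hepatocytes, 3 taken at 11 months of age (KO_tumor_11M) and 5 at 14 months (KO_tumor_14M). They were set against 5 livers of wild-type mice, 2 at 11 months (control_liver_11M) and 3 at 14 months (control_liver_14M), and all mice were on the mixed B6/129 background. No tumour-free liver of a knockout mouse was analysed here, so the lost gene and the tumour state cannot be told apart. Nothing in the labels says that each tumour came from a different mouse, so p-values measure the spread between these samples, and miR-122 itself was not measured. Probe sets give log2 intensities whose levels cannot be set against each other between genes, so every comparison here is of the same probe set between arrays.

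Oxidative phosphorylation passes electrons from NADH (complex I, NADH:ubiquinone oxidoreductase) and from succinate (complex II, succinate dehydrogenase) to ubiquinone, then through complex III, the cytochrome bc1 complex, to cytochrome c and through complex IV, cytochrome c oxidase, to oxygen. Complexes I, III and IV pump protons across the inner mitochondrial membrane, and complex V, the ATP synthase, uses the gradient to make ATP. Most subunits are encoded in the nucleus, made in the cytosol and imported, while a core set in complexes I, III, IV and V is encoded by mitochondrial DNA. Hepatocytes are rich in mitochondria and use this pathway to pay for glucose and urea synthesis, and several subunits of complex IV have isoforms used mainly in heart, skeletal muscle or testis.

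The arrays were not alike within the groups. On the first principal component of all probe sets the controls lay between -79.4 and -64.5 and 5 tumours between 67.8 and 92.2. The other 3 tumours lay between them, with KO_tumor_11M replicate 1 at -2.7, replicate 2 at -17.8 and KO_tumor_14M replicate 4 at 1.6. A pair of controls, replicate 1 of control_liver_11M with replicate 3 of control_liver_14M, was nearly identical (r = 0.995 over all probe sets, 0.982 to 0.990 for the other pairs). Results are therefore also given without these 3 tumours or without this pair. Of 10 measured hepatocyte markers none passed the test, and their mean level per array was 11.89 to 12.91 in tumours and 12.85 to 13.18 in controls. Of 8 macrophage markers 3 were higher in tumours (mean level 8.16 to 9.90 in tumours and 8.01 to 8.63 in controls), and of 9 stellate cell and fibroblast markers 4 were higher and 1 lower (mean level 7.71 to 9.48 in tumours and 7.47 to 8.19 in controls). Neutrophil markers were higher for 2 of 5 (mean level 5.74 to 7.16 in tumours and 4.75 to 5.91 in controls) and endothelial markers for 2 of 7 (6.64 to 7.81 in tumours and 7.20 to 7.45 in controls). The median log2 fold change was 0.00 over the 5 neutrophil markers and -0.24 over the 7 endothelial markers, so the latter did not rise as a set. Of 7 proliferation genes 1 was higher, with a mean level of 5.43 to 9.19 in tumours and 5.21 to 6.60 in controls. The part of these cells in the subunits' levels was not tested. Differences between 3′ and 5′ control probe sets of Gapdh, a measure of RNA quality, ran from -0.17 to 0.02 in tumours and from -0.14 to 0.14 in controls (log2). For Actb such differences ran from 0.39 to 0.76 in tumours and from 0.49 to 0.93 in controls. The part of RNA quality in the results was not tested.

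Few subunits differed between tumours and controls. With both ages weighted equally, limma's moderated test with Benjamini-Hochberg adjustment over all genes called 4 of the 81 subunits at an adjusted p under 0.05, against 20.1% of all genes. Of these, 1 was higher in tumours (10.3% of all genes) and 3 were lower (9.81% of all genes). At an unadjusted p under 0.05 there were 17 (36.4% of all genes), 4 of them higher (16.6%) and 13 lower (19.8%). Among genes with a mean above the median gene, where most subunits lie, the test called 4 of 75 subunits and 29.1% of all such genes. None of the 81 had all tumours on 1 side of all controls, which held for 11.3% of all genes.

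The size of the changes was bounded. The 95% interval of the log2 fold change lay between -1 and 1, that is within 2-fold, for 76 of the 81 subunits and for 78.5% of all genes. The 5 subunits with wider intervals were Cox7a1, Cox6a2, Cox6b2, Ndufa4l2 and Ndufc1. Only Cox7a1 had a log2 fold change beyond 1, which 9.01% of all genes had. By complex, the median log2 fold change was -0.07 in complex I, -0.22 in complex II, -0.10 in complex III, 0.07 in complex IV and 0.06 in complex V, and it was -0.05 over all genes. These medians are small: without the 3 tumours that lie apart on the arrays' first principal component they were 0.06 in complex I and 0.03 in complex III, and without KO_tumor_11M replicate 3 they were -0.03 in complex IV and -0.05 in complex V. In bulk tissue fewer cells of a type and less RNA per cell cannot be told apart.

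**Figure D1:**
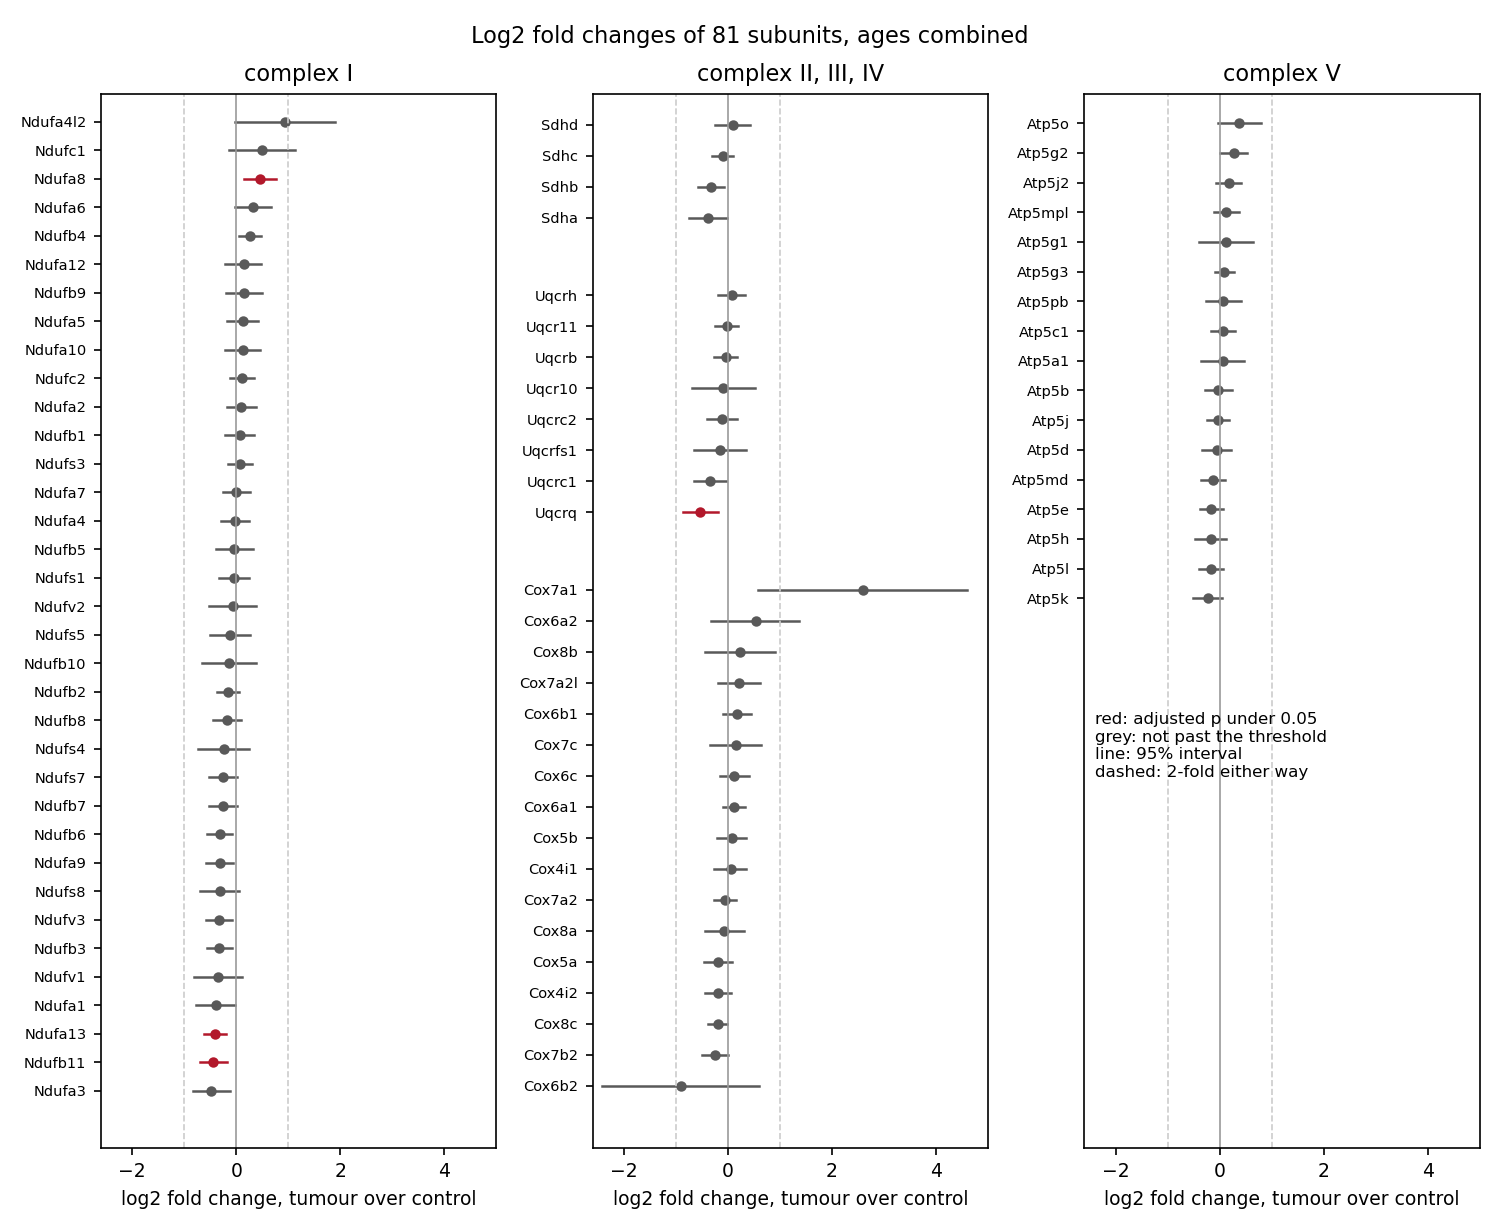
Log2 fold change of each of the 81 subunits, tumours over controls with the ages weighted equally (x axis), in panels by complex. Points are estimates, lines 95% intervals, and red marks an adjusted p under 0.05. The 4 red points are Ndufa8, Ndufa13, Ndufb11 and Uqcrq, and Cox7a1 has the point farthest from 0.

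Complex I held 3 of the 4 calls. Ndufa13, an accessory subunit of the membrane arm also known as the cell death regulator GRIM-19, had log2 levels of 11.42, 11.77 and 11.54 in KO_tumor_11M and of 12.07 and 12.16 in control_liver_11M. At 14 months it had 11.46, 11.94, 11.81, 11.55 and 11.69 in tumours and 12.00, 11.93 and 12.02 in controls. All tumours but KO_tumor_14M replicate 2, which lay just above the lowest control, were below every control. The log2 fold change was -0.41 ± 0.10 (SE; limma adjusted p = 0.0148), and of 13 arrays only the removal of control_liver_11M replicate 2 ended the call (adjusted p = 0.065).

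Ndufb11, an X-linked accessory subunit of the membrane arm, stood at 11.42, 11.59 and 11.73 in KO_tumor_11M and at 11.89 and 12.03 in control_liver_11M. The 14-month values were 11.51, 11.64, 11.92, 11.29 and 11.28 in tumours and 12.09, 11.99 and 11.97 in controls. KO_tumor_14M replicate 3 was the only tumour that reached the lowest control. The log2 fold change was -0.44 ± 0.12 (SE; limma adjusted p = 0.0239), and it was -0.41 and -0.42 by the other 2 probe sets of the gene. The call was lost without control_liver_11M replicate 1 or 2 or control_liver_14M replicate 1, with an adjusted p of up to 0.0957.

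Ndufa8, a subunit on the intermembrane-space side of complex I, was the only subunit that rose with the ages combined. Its log2 level was 11.79, 10.97 and 11.64 in KO_tumor_11M and 11.23 and 11.19 in control_liver_11M. The 14-month samples had 11.91, 11.56, 11.66, 12.08 and 11.61 in tumours and 11.09, 11.10 and 11.10 in controls. Only KO_tumor_11M replicate 2 fell below the controls, and the other 7 tumours were above all of them. The log2 fold change was 0.46 ± 0.14 (SE; limma adjusted p = 0.0436), but the call was lost in 10 of 13 fits that left out 1 array, with an adjusted p of up to 0.122.

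Uqcrq, a small subunit of complex III near its ubiquinone site, was the largest of the called changes. It had log2 levels of 11.21, 11.58 and 11.66 in KO_tumor_11M and of 11.80 and 12.07 in control_liver_11M. At 14 months the levels were 11.33, 11.39, 11.91, 11.03 and 11.25 in tumours and 12.20, 11.97 and 11.82 in controls. Again KO_tumor_14M replicate 3 was the only tumour inside the range of the controls. The log2 fold change was -0.53 ± 0.15 (SE; limma adjusted p = 0.0302), and 5 of the 13 removals of 1 array ended the call. Without both nearly identical controls limma called 0 of the 81 subunits, against 7.52% of all genes, and 11 had an unadjusted p under 0.05, against 26.4% of all genes.

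**Figure D2:**
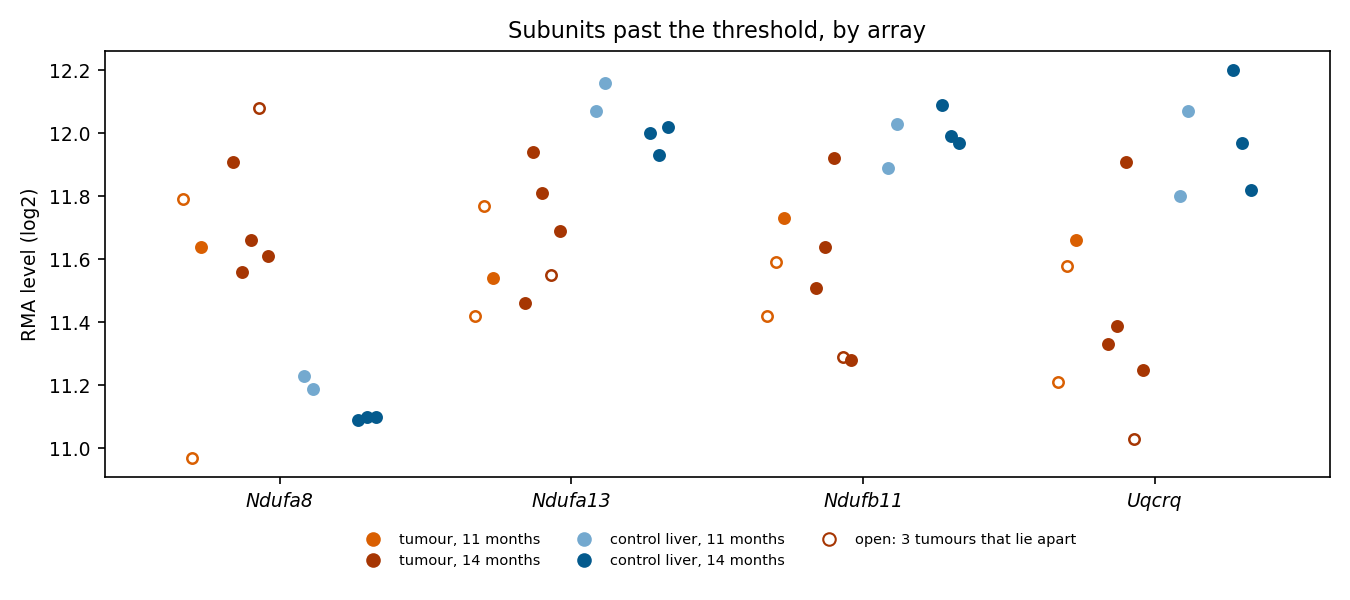
Log2 RMA level (y axis) of the 4 called subunits on each array, with tumours left and control livers right for each gene, and 11 months left of 14 months. Open circles are the 3 tumours that lie apart on the first principal component. Ndufa13, Ndufb11 and Uqcrq lie lower in tumours and Ndufa8 higher, and in each gene at least 1 tumour lies among or across the controls.

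The catalytic core showed small differences that did not pass the test. In complex I the nuclear core subunits described here, from the part of the complex that carries the flavin and the iron-sulphur clusters, were Ndufv1 (log2 fold change -0.35), Ndufv2 (-0.07), Ndufs1 (-0.04), Ndufs3 (0.07), Ndufs7 (-0.25) and Ndufs8 (-0.32). Further probe sets of Ndufv2, at mean levels of 10.22 and 10.54, both gave -0.28. Ndufv1, which binds NADH, had 10.31, 10.82 and 11.39 in KO_tumor_11M and 11.26 and 11.49 in control_liver_11M, and at 14 months 10.73 to 11.70 in tumours and 11.24 to 11.47 in controls. Its tumours thus lay on both sides of the controls. Other accessory subunits of complex I with an unadjusted p under 0.05 and no call were Ndufa1 (-0.39), Ndufa3 (-0.48), Ndufa9 (-0.32), Ndufb3 (-0.33), Ndufb6 (-0.32), Ndufv3 (-0.33) and Ndufb4 (0.26).

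In complex II, all of whose subunits are encoded in the nucleus, the flavoprotein Sdha had a log2 fold change of -0.38 (limma adjusted p = 0.115) and the iron-sulphur subunit Sdhb of -0.33 (adjusted p = 0.0602). Another bright probe set of Sdha, at a mean level of 11.28, gave -0.59. It had 10.53 to 11.37 in tumours and 11.43 to 11.87 in controls, without overlap. Dim probe sets of Sdha, at mean levels of 3.34 and 4.85, gave -0.09 and -0.16. Sdhb had 11.53, 11.80 and 12.01 in KO_tumor_11M and 12.20 and 12.39 in control_liver_11M. The 14-month values were 12.11, 12.15, 12.16, 12.03 and 11.69 in tumours and 12.31, 12.10 and 12.10 in controls. The groups overlapped only at 14 months. The membrane anchors Sdhc and Sdhd had -0.10 and 0.09. Sdhb was called without KO_tumor_11M replicate 3 (adjusted p = 0.0439).

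In complex III the core proteins Uqcrc1 and Uqcrc2 had log2 fold changes of -0.34 and -0.11, and the Rieske iron-sulphur protein Uqcrfs1 had -0.16. Uqcrc1 missed the threshold (limma adjusted p = 0.0998), and was called when KO_tumor_11M replicate 3 was left out (adjusted p = 0.0366). In complex V the catalytic head subunits Atp5a1, Atp5b, Atp5c1, Atp5d and Atp5e (alpha to epsilon) had 0.06, -0.03, 0.07, -0.06 and -0.16. The genes of the rotating subunit c, Atp5g1, Atp5g2 and Atp5g3, had 0.12, 0.27 and 0.09. Over the 17 genes of complex V the log2 fold changes ran between -0.23 (Atp5k) and 0.38 (Atp5o, the stalk protein OSCP), and 0 passed the test, with Atp5g2 alone at an unadjusted p under 0.05 (0.043).

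Several isoforms of complex IV varied widely between arrays. Cox7a1, the isoform of heart and skeletal muscle, had log2 levels of 4.61, 4.13 and 9.61 in KO_tumor_11M and of 4.33 and 4.85 in control_liver_11M. The 14-month samples had 9.40, 9.46, 9.72, 6.30 and 7.84 in tumours and 5.17, 5.34 and 4.20 in controls. The tumours thus fell into levels like those of controls, in KO_tumor_11M replicates 1 and 2, and higher levels in the other 6. The low ones, and KO_tumor_14M replicate 4 with 6.30, are the 3 tumours that lie apart on the first principal component.

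The log2 fold change of Cox7a1 was 2.59 ± 0.92 (SE; limma adjusted p = 0.0669). Without the 3 tumours that lie apart it was 4.61 (adjusted p = 7.55e-05), a value from a choice of samples that follows their overall profile. Its SD was 2.33 over 8 tumours and 0.50 over 5 controls, the largest tumour SD of all 81 subunits. Cox7a2, the isoform used in liver, averaged 12.61 ± 0.26 in tumours and 12.62 ± 0.05 in controls (SD, n = 8 and 5), with a log2 fold change of -0.05 and a 95% interval of -0.26 to 0.16. Cox7a2l, a relative that joins complexes III and IV in supercomplexes, had 0.21.

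Other isoforms stood out on a few arrays. Cox6a2, another heart and muscle isoform, reached 8.18 and 8.22 in KO_tumor_14M replicates 1 and 2, while the other tumours had 5.80 to 6.69 and the controls 6.09 to 6.26. These 2 tumours carry no number in their titles and correlated at r = 0.987, the highest of the tumour pairs. Cox8b, also a muscle isoform, reached 6.85 in KO_tumor_14M replicate 4, while the other tumours had 4.74 to 5.31 and the controls 4.58 to 5.29. Their liver counterparts Cox6a1 and Cox8a had log2 fold changes of 0.11 and -0.07. Of 9 striated muscle markers 0 were called, and their mean level per array was 4.42 to 4.61 in tumours and 4.49 to 4.64 in controls.

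Cox6b2, known from testis and sperm, reached 8.21 in KO_tumor_14M replicate 4, while the other tumours had 4.95 to 6.04. In controls it was at 7.91 and 4.70 at 11 months and at 5.15, 7.47 and 7.94 at 14 months. High and low arrays occurred in both groups, and both members of the nearly identical control pair were among the high ones. The common form Cox6b1 had a log2 fold change of 0.17. Of 6 testis markers 1 was called, Prm1, a sperm protamine (-0.67), and their mean level was 4.29 to 4.57 in tumours and 4.61 to 4.80 in controls. Cox7b2 and Cox8c, also testis forms, had -0.24 and -0.20, and Cox4i2, the lung form, had -0.19 against 0.05 for Cox4i1.

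Ndufa4l2, which hypoxia is known to induce, reached 8.47 in KO_tumor_11M replicate 1 and 8.32 in KO_tumor_14M replicate 3. The other 6 tumours had 6.04 to 7.23 and the controls 5.81 to 6.47. Its log2 fold change was 0.93 ± 0.44 (SE; limma adjusted p = 0.146). Its relative Ndufa4, counted here in complex I by its symbol though now assigned to complex IV, had -0.02. The probe sets of Ndufb4, Cox4i2 and Cox7b2 had mean levels below 5.17, the median of all values in the table, so these probe sets are dim.

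**Figure D3:**
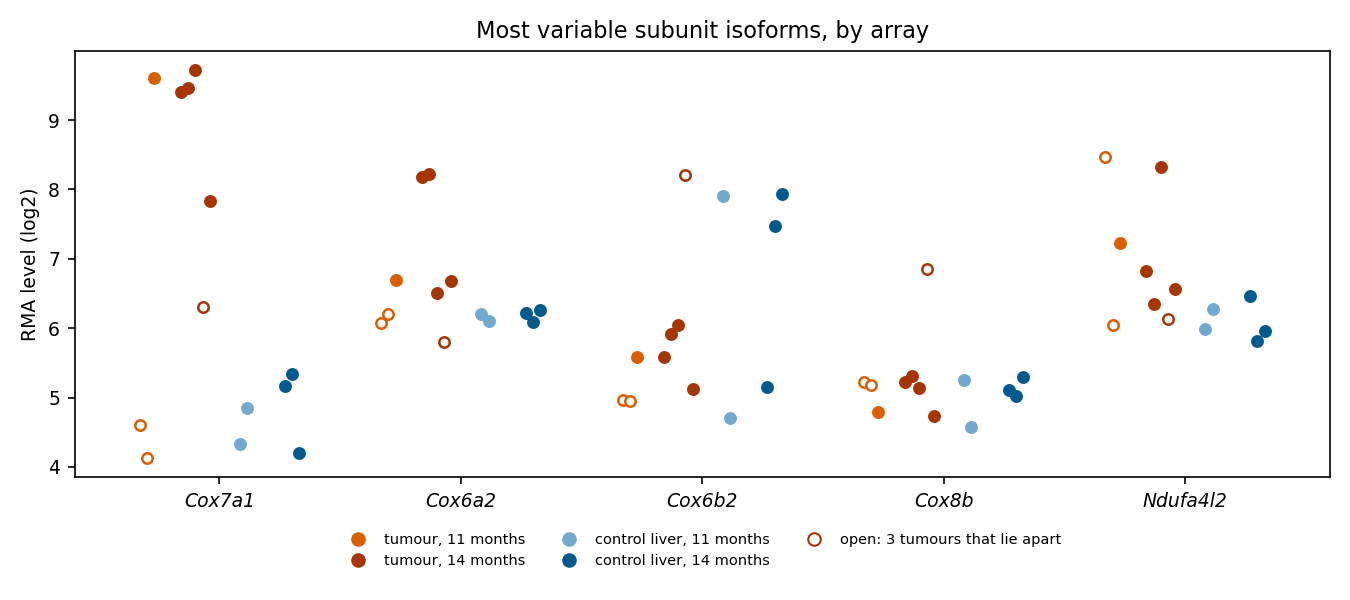
Log2 RMA level (y axis) of the 5 subunits with the largest SD over tumours, on each array, with tumours left and control livers right for each gene. Open circles are the 3 tumours that lie apart on the first principal component. Cox7a1 is at 7.84 to 9.72 in 5 tumours and at 4.20 to 5.34 in controls, while Cox6a2, Cox8b and Ndufa4l2 are high in 1 or 2 tumours.

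Sequences upstream of the start site are shown for the called subunits that the promoter table holds and for the isoform pair Cox7a1 and Cox7a2, with SDs of 2.33 and 0.26 over tumours, together with Cox6b2. They are the 250 bases before the annotated start in RefSeq's mouse annotation (GRCm38.p6), on the gene's strand, and capitals mark motif matches. Uqcrq and Cox6a2 are not printed. The intervals are chr2:36049339-36049588 (minus strand) for Ndufa8, chr8:69902021-69902270 (minus) for Ndufa13, chrX:20617620-20617869 (minus) for Ndufb11, chr7:30183921-30184170 (plus) for Cox7a1, chr9:79759854-79760103 (minus) for Cox7a2 and chr7:4753095-4753344 (minus) for Cox6b2.
Ndufa8: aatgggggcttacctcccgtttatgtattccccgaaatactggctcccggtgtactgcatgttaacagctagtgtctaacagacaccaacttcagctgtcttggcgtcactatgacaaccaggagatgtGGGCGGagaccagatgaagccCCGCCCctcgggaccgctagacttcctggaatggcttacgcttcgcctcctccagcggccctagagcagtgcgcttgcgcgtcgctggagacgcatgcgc
Ndufa13: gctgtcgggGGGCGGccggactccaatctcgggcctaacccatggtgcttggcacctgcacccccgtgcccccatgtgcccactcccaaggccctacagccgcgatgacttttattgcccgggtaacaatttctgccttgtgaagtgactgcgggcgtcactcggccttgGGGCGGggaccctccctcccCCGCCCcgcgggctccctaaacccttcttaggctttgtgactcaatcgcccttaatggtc
Ndufb11: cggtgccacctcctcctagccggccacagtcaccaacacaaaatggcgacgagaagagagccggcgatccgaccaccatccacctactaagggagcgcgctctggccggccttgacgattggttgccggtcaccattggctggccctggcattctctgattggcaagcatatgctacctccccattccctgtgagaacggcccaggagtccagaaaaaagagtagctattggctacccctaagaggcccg
Cox7a1: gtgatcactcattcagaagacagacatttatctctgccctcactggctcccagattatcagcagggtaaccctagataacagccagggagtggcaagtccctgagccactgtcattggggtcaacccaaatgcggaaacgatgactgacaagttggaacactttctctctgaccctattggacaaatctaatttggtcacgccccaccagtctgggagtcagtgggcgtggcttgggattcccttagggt
Cox7a2: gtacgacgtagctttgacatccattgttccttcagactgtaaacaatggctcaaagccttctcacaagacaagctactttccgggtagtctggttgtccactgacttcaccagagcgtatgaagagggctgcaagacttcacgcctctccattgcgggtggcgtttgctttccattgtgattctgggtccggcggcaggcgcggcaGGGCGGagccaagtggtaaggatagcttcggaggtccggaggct
Cox6b2: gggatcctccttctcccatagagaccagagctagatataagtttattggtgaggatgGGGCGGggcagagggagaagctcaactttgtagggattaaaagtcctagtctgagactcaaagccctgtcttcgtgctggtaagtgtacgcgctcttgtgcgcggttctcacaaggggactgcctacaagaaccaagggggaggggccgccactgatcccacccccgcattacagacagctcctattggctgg

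Motifs were searched on both strands as TGCGCA, a core of the NRF1 site that is its own reverse complement, CCGGAAG for GABP, AAGGTCA for ERR and GGGCGG for SP1, all factors known to act on genes of this pathway. In Ndufa8 the capitals are 2 SP1 matches and in Ndufa13 3 SP1 matches. Cox7a2 and Cox6b2 each hold 1 SP1 match, and none of these letters is in the windows of Ndufb11 or Cox7a1. Of the 66 members in the table, 13 held the NRF1 core (19.7%, against 7.36% of 27025 genes) and 12 the GABP motif (18.2% against 7.83%). The ERR motif was in 5 (7.58% against 4.7%) and the SP1 motif in 25 (37.9% against 35.4%). The members' windows were richer in G and C, with a median of 57% against 52.4%, and a match is a description of letters, not a site.

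The subunits were also read array by array. The median difference of all 81 subunits from their control means was -0.24, -0.34 and 0.10 in KO_tumor_11M replicates 1 to 3 and 0.22, 0.25, 0.15, -0.10 and -0.02 in KO_tumor_14M replicates 1 to 5 (log2). In the 5 controls it lay between -0.06 and 0.06, and over all genes it lay between -0.08 and -0.03 in tumours and between -0.02 and 0.02 in controls. The tumours thus lay on both sides of the controls. Tumours with a positive median had differences between 3′ and 5′ probe sets of Actb of 0.39 to 0.49. Those with a negative median had 0.5 to 0.76, and controls had 0.49 to 0.93. A link of RNA quality to these medians was not tested.

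KO_tumor_11M replicate 2 had 68 of 81 subunits below the lowest control and 0 above the highest, against 30.6% and 21.5% of all genes. KO_tumor_14M replicate 2, at the other end, had 52 above the highest control and 9 below the lowest, against 29.3% and 35.3%. Complex I was at -0.28 and -0.31 in KO_tumor_11M replicates 1 and 2 and at 0.26 and 0.28 in KO_tumor_14M replicates 1 and 2, with controls at -0.08 to 0.06. Complex IV was at -0.24 and -0.27 in the first pair and at 0.31 and 0.26 in the second, with controls at -0.06 to 0.06.

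Complexes II and III reached lower. Complex II was at -0.53 and -0.39 in KO_tumor_11M replicates 1 and 2 and lay between -0.26 and -0.02 in the other 6 tumours, with controls at -0.11 to 0.12. The median of the complex was thus below 0 in every tumour, as was the median over all genes (-0.08 to -0.03). Complex III was at -0.56 and -0.38 in the same 2 tumours and at 0.15 in KO_tumor_14M replicates 1 and 2, with controls at -0.14 to 0.12. Complex V was at -0.13 and -0.34 in those 11-month tumours, and at 0.05 to 0.27 in the other 6, with controls at -0.07 to 0.06.

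**Figure D4:**
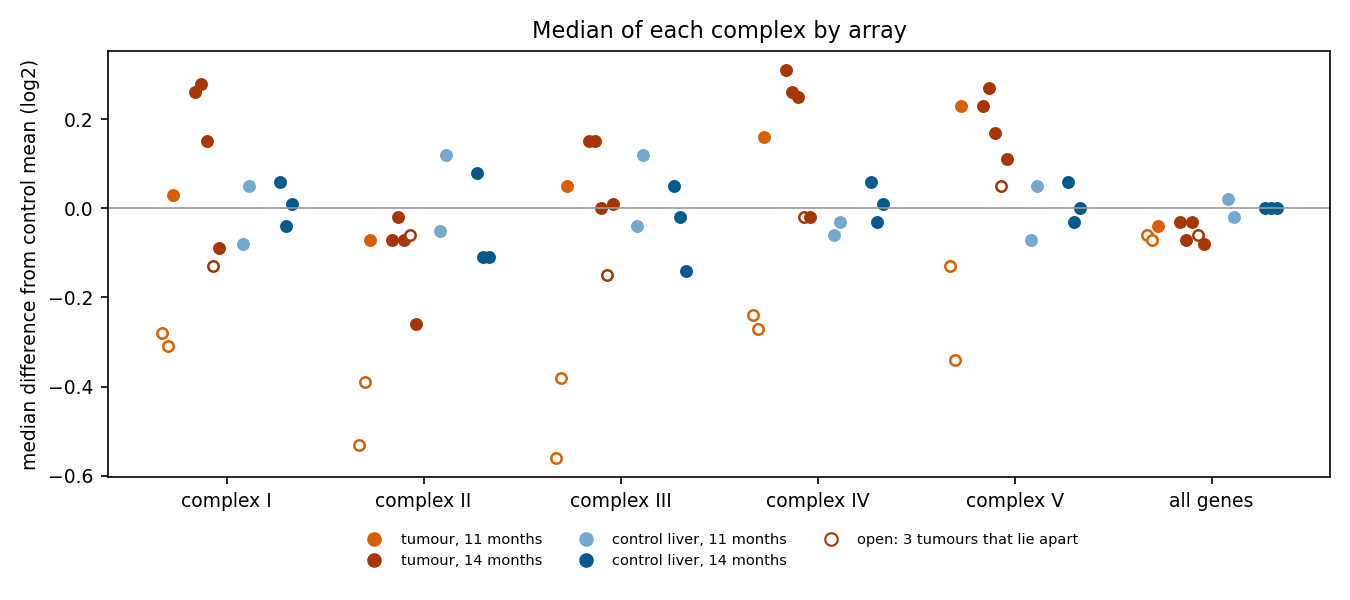
Median over a complex's members of the difference from the control mean (log2, y axis), for each array, with tumours left and control livers right in each complex and all genes at the far right. Open circles are the 3 tumours that lie apart on the first principal component. Tumours spread from -0.56 to 0.31 over the 5 complexes, controls from -0.14 to 0.12.

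The spread of most subunits was larger in tumours than in controls. The median SD was 0.28 over 8 tumours and 0.10 over 5 controls for the subunits, and 0.25 and 0.16 for all genes. The SD was larger in tumours for 77 of 81 subunits (95.1%) and for 73.3% of all genes. These shares were not matched for level, as the subunits had a median level of 11.39 and all genes of 6.20. The control SD includes the nearly identical pair. Over the 8 tumours, the medians of the 5 complexes correlated with each other at r = 0.82 (complexes I with II, and II with V) to 0.98 (I and IV), as a description of arrays that share their normalisation. Across 13 arrays a subunit correlated with the median of the others of its complex at a median r of 0.61. Cox5b and Atp5g3 had the highest value, 0.94, and Ndufa3 the lowest, -0.35.

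Ndufa3, an accessory subunit of complex I, ran against its complex. It had 12.02, 11.94 and 11.38 in KO_tumor_11M and 11.98 and 12.17 in control_liver_11M. At 14 months it had 11.44, 11.41, 11.65, 12.02 and 11.09 in tumours and 12.38, 12.06 and 12.13 in controls. The 3 tumours near the controls are those that lie apart, and the other 5 lay between 11.09 and 11.65. A second probe set gave a log2 fold change of -0.42, against -0.48 by the first, and another, at a mean level of 4.49, gave -0.01.

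Without the 3 tumours that lie apart, 15 of the 81 subunits were called, 12 higher and 3 lower, against 30.1% of all genes (16.6% higher and 13.4% lower). The higher ones were Cox7a1 (log2 fold change 4.61), Ndufc1 (0.95), Atp5o (0.73), Atp5g1 (0.56), Cox7a2l (0.55), Ndufa8 (0.51), Uqcr10 (0.49), Atp5g2 (0.36), Atp5j2 (0.36), Cox6b1 (0.35), Atp5mpl (0.31) and Uqcrh (0.29). Complex V, which had 0 calls with all arrays, holds Atp5o, Atp5g1, Atp5g2, Atp5j2 and Atp5mpl. The lower ones were Ndufa3 (-0.74), Ndufa13 (-0.41) and Ndufb3 (-0.38). This leaves 1 tumour at 11 months, which the fit takes to vary like the other groups.

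Age was examined within each group. At 11 months 0 of 81 subunits were called by limma, against 1.92% of all genes. At an unadjusted p under 0.05 there were 6, all lower, against 8.54% of all genes lower, and the smallest p-values were those of Ndufa13 (-0.53), Sdhb (-0.51) and Ndufb3 (-0.47). The median log2 fold change of the subunits was -0.18 at 11 months and 0.07 at 14 months, beside -0.04 and -0.06 for all genes.

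At 14 months 6 of 81 were called, against 15.3% of all genes. Ndufa8 (0.67, limma adjusted p = 0.0311) and Ndufb4 (0.39, adjusted p = 0.0453) were higher (8.37% of all genes). Ndufa3 (-0.67), Uqcrq (-0.61), Ndufb11 (-0.49) and Cox8c (-0.38) were lower (6.88% of all genes), with adjusted p-values of 0.0323 to 0.049. No subunit was called at 14 months when KO_tumor_14M replicate 1, control_liver_14M replicate 1 or control_liver_14M replicate 3 was left out. Cox7a1 missed the threshold with all arrays (3.64, adjusted p = 0.0531). The probe set of Ndufb4 is one of the dim ones, and 2 brighter probe sets that also name its relatives Ndufb4b and Ndufb4c gave 0.37 and 0.39 with the ages combined. A second probe set of Cox8c, at a mean level of 6.06, gave -0.06 with the ages combined, against -0.20 by the first.

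The effect at 14 months minus that at 11 months, tested as an interaction in limma, passed for 0 of 81 subunits and for 0% of all genes, with 2 subunits at an unadjusted p under 0.05 (2.99% of all genes). Tumours at 14 against 11 months gave 0 of 81 calls (0.0055% of all genes), and 15 subunits at an unadjusted p under 0.05, all higher at 14 months, against 3.75% of all genes. The log2 difference was above 0 for 72 of 81 subunits and for 9001 of 18193 genes, with a median of 0.25 for the subunits and 0.00 for all genes. The medians of the complexes moved together over the tumours, so the 72 are not separate results. Ndufs5 (0.83), Ndufb2 (0.45) and Ndufs3 (0.44) had the smallest p-values. Of the 3 tumours at 11 months, 2 are among those that lie apart, so age and that profile cannot be told apart with these samples. Control livers at 14 against 11 months gave 0 calls (0% of all genes) and 1 higher subunit at an unadjusted p under 0.05 (1.17% of all genes), Cox8c (0.29).

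Genes that build, feed or accompany the complexes were counted in lists drawn up with earlier results of these data known. Counts with all arrays are to be read beside the 10.3% of all genes that were higher and the 9.81% that were lower. With arrays left out the share of all genes called moves too, so those counts cannot be read beside these 2 shares. Of 18 assembly factors of complex I, 0 were higher and 9 were lower in tumours, and their median log2 fold change was -0.31. Ecsit, which helps build the membrane arm, had 6.90 to 8.22 in tumours and 8.49 to 8.67 in controls (log2 fold change -0.88 ± 0.17, SE; limma adjusted p = 0.00576). Every tumour was below every control. Timmdc1 (-0.84), the iron-sulphur cluster carrier Nubpl (-0.83), Foxred1 (-0.71), Ndufaf1 (-0.70), Dmac1 (-0.59), Ndufaf4 (-0.52), Ndufaf7 (-0.50) and Tmem126b (-0.31) also fell. The count was 9 without the 3 tumours that lie apart, 4 without the nearly identical controls and 5 without control_liver_11M replicate 2.

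Assembly factors of the other complexes were counted in the same way. Of 13 for complexes II, III and V, 3 were lower and 0 higher: Ttc19 (-0.54), Atpaf2 (-0.37) and Bcs1l (-0.34). Of 23 for complex IV, Cox17, a copper chaperone, rose (1.26 ± 0.20, SE; limma adjusted p = 0.00192), with 9.77 to 11.42 in tumours and 9.37 to 9.67 in controls, and Pet100 (-0.59), Higd1a (-0.43) and Coa7 (-0.26) fell. Without the nearly identical controls 0 of the 13 were lower, and of the 23 only Cox17 was called. The count of 3 among the 13 was also 0 when any single control other than control_liver_14M replicate 1 was left out. The median log2 fold change was -0.27 over the 13 and -0.24 over the 23 with all arrays. Without the 3 tumours that lie apart these medians were -0.08 and 0.03. Of 17 genes for electron carriers and ubiquinone synthesis 4 were lower and 0 higher, among them Etfa and Etfb (-0.81 and -0.43), the flavoprotein that brings electrons from fatty acid oxidation, and Coq3 (-0.81). The count of 4 was 2 without the nearly identical controls. The median log2 fold change of the 17 was -0.19 with all arrays and -0.12 without the 3 tumours that lie apart. Cytochrome c, Cycs, had 0.29 (adjusted p = 0.144).

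Several enzymes upstream of the chain changed. Of 17 genes of the TCA cycle 4 were higher, Idh3a (1.42), Mdh2 (1.31), Cs, citrate synthase (1.09), and Idh3g (0.87), and Pcx (-0.74) and Pdha1 (-0.50) were lower. Mdh2, mitochondrial malate dehydrogenase, had 11.24 to 13.06 in tumours and 10.84 to 11.09 in controls, without overlap. None of Sdha to Sdhd, the TCA enzyme that is also complex II, passed by the brightest probe set of each. Of 20 genes of glycolysis 6 were higher, led by Pfkp (3.34), Aldoa and Pkm (2.48), and 2 were lower, Aldoc (-1.56) and Pdk1 (-1.12). Aldoa, aldolase A, averaged 12.21 ± 0.66 in tumours and 9.18 ± 0.28 in controls (SD, n = 8 and 5). Without the nearly identical controls 3 TCA genes were called higher and 1 lower, and 2 glycolytic genes higher and 0 lower. In glycolysis the 2 lower calls were also lost when any single control or KO_tumor_11M replicate 3 was left out, and the 6 higher calls became 3 without control_liver_11M replicate 1 or 2. In the TCA cycle 4 were called higher whichever single array was left out, and 0 lower without control_liver_11M replicate 2. The median log2 fold change was 0.07 in the TCA cycle and 0.28 in glycolysis with all arrays. Without the 3 tumours that lie apart these medians were 0.15 and 0.39.

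Among carriers and porins 3 of 13 were higher, Slc25a4 (2.47), Tspo (1.02) and Vdac2 (0.75), and 2 were lower, Slc25a31 (-1.10) and Mpc1 (-0.44). Slc25a4, the ADP/ATP carrier of heart and muscle, had 7.38 to 10.91 in tumours and 6.54 to 6.96 in controls, and every tumour was above every control. Without the nearly identical controls 1 carrier was called higher and 0 lower, and with single arrays left out 2 to 3 were higher and 0 to 2 lower. The median log2 fold change of the 13 was 0.04 with all arrays and 0.22 without the 3 tumours that lie apart. Of 23 genes for protein import 2 were higher, Timm17a (1.28) and Tomm20 (0.76), and Timm17b (-0.45) was lower. With all arrays these shares lay below those of all genes, and the median log2 fold change was 0.13. Without the 3 tumours that lie apart this median was 0.21. Leaving out single arrays gave 2 to 5 higher and 0 to 1 lower, with 5 higher without KO_tumor_11M replicate 2 or KO_tumor_14M replicate 4. Of 16 genes for expression of mitochondrial DNA 4 were lower, Mterf3 (-0.57), the polymerase subunits Polg (-0.49) and Polg2 (-0.46), and Tsfm (-0.42). That count was 1 without control_liver_11M replicate 2, 2 without control_liver_14M replicate 1 or 3, and 0 without the nearly identical controls. The median log2 fold change of the 16 was -0.35 with all arrays and -0.23 without the 3 tumours that lie apart. Of 76 mitochondrial ribosomal proteins 5 were higher and 8 lower, beside 10.3% and 9.81% of all genes. These counts were 1 higher and 0 lower without control_liver_11M replicate 2, and 0 of either without the nearly identical controls. Other removals raised a count, to 7 higher (6 lower) without KO_tumor_11M replicate 2 and to 10 lower (5 higher) without KO_tumor_14M replicate 4. The median log2 fold change of the 76 was -0.03 with all arrays and 0.12 without the 3 tumours that lie apart. ND5, the only subunit encoded by mitochondrial DNA that a probe set names, had 13.61 to 14.02 in tumours and 13.51 to 13.78 in controls (0.11).

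**Figure D5:**
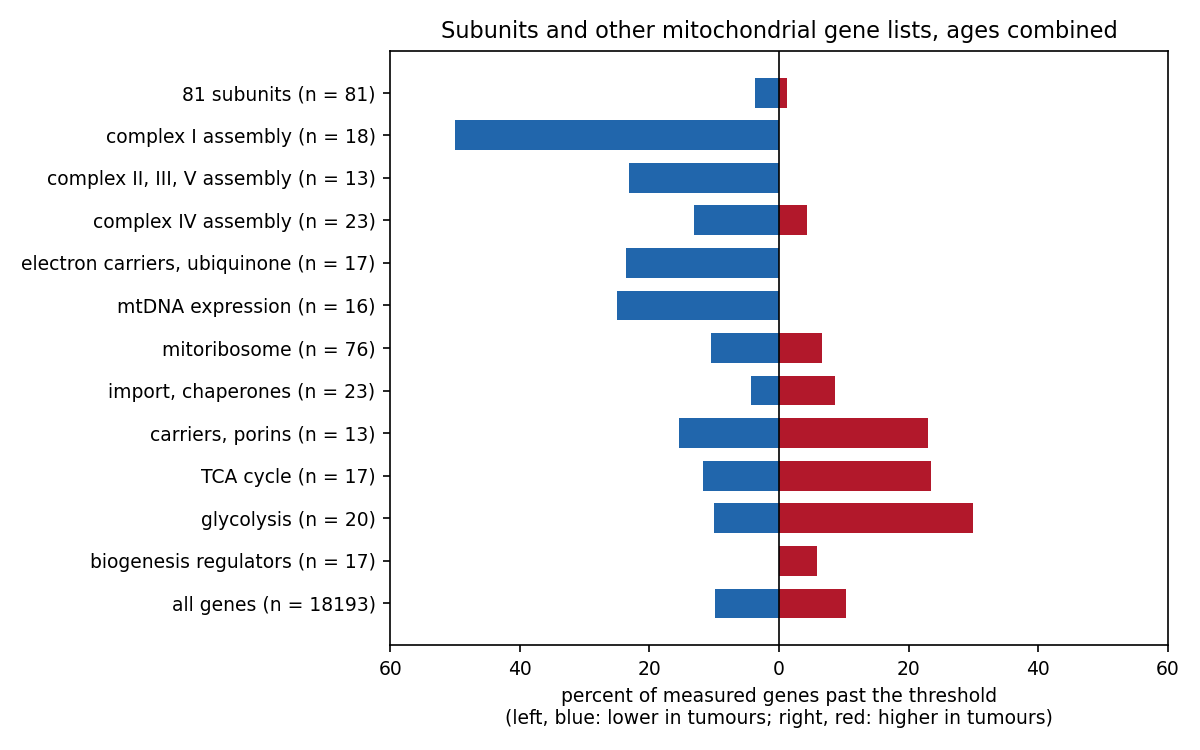
Percent of the measured genes of each list past the threshold in limma with the ages combined, with those lower in tumours to the left (blue) and those higher to the right (red), and the number of genes in brackets. Complex I assembly factors have the longest bar, 9 of 18 lower, and the 81 subunits have 3 lower and 1 higher.

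Of 17 regulators of mitochondrial biogenesis only Nfe2l2 was called (1.38) in the main fit. With probe sets averaged per gene 3 were higher and 2 lower, and with limma array weights 3 were higher and 3 lower. With no age term there were 1 higher and 3 lower. Leaving out single arrays gave 1 to 2 higher and 0 to 2 lower. Ppargc1a, the coactivator PGC-1alpha, and Esrra, the receptor ERRalpha that it serves, were looked at after their values had been seen. Ppargc1a had 6.70, 6.14 and 9.27 in KO_tumor_11M and 6.25 and 6.16 in control_liver_11M. The 14-month values were 9.81, 9.98, 9.56, 5.83 and 8.99 in tumours and 6.32, 6.69 and 6.09 in controls. It was high in 5 tumours and at the level of controls in the 3 that lie apart, and its log2 fold change was 1.81 (limma adjusted p = 0.0988).

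Esrra had 7.39, 6.90 and 8.52 in KO_tumor_11M and 7.40 and 7.10 in control_liver_11M. At 14 months it had 8.57, 8.44, 8.43, 7.13 and 8.03 in tumours and 7.26, 7.22 and 7.46 in controls, so the same 5 tumours were above all controls (log2 fold change 0.58, limma adjusted p = 0.182). These are also the 5 tumours with Cox7a1 at 7.84 or above. Ppargc1b, a relative, had -1.36 (adjusted p = 0.0744). Nrf1 and Gabpa, whose motifs were searched, had 0.12 and -0.39, and neither passed.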

How the data were processed

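RNA of 13 liver samples was hybridised to Affymetrix 1-colour arrays, per the labels. The deposited values are log2 intensities made by the authors with robust multi-array analysis (RMA) in Partek, per the submitters' processing notes. The sources used here give no software version and no scan date, and the log base was judged from the range of the values. The table holds 45101 probe sets. Of these 34945 name 1 gene, 932 several and 9160 none, and 64 are array controls. Each of 18193 genes was read by its brightest probe set, with no filter on level. The 81 subunits have 164 probe sets.

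A linear model with a mean for each of the 4 groups was fitted to all 13 arrays with limma 3.58.1 (R 4.3.3), using lmFit and eBayes with 2.31 prior degrees of freedom. Benjamini-Hochberg adjustment ran over all 18193 genes, and an adjusted p under 0.05 is a call. Both ages weigh the same where they are combined. The fit was tested on simulated data. Precision is set by having only 2 to 5 arrays in a group. Groups and ages come from the labels, and replicate numbers follow sample order.

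Members and lists were chosen with earlier results of these data known, and lists are described by counts, with no set test. Genes were named by rule: called members, core subunits and tissue isoforms, members called in another comparison (or the 3 with the smallest p), members whose call changes without 1 array, and up to 3 of each list. Others are named where it is said so, or stand beside a result they bear on. Alternatives covered probe sets, normalisation, spread, array weights, left-out arrays, level filter, threshold and age term. Promoters come from RefSeq (GRCm38.p6). Summaries used pandas 2.3.3 and numpy 2.4.6 in Python 3.11.15, and plots matplotlib 3.10.9.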

Additional observations from a re-analysis of the deposited data

Results flagged for a closer look

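Outliers within a group were sought with Dixon's test in the 5 tumours at 14 months, the only group with more than 3 arrays, over 81 subunits and the medians of the 5 complexes. It marked 6 of 86 series of values, and chance marks about 1 in 20. KO_tumor_14M replicate 4 had low values of Ndufa7, an accessory subunit of complex I (10.76, against 11.30 to 11.46 in the other 4), Uqcrfs1, the Rieske protein of complex III (10.92, against 11.67 to 11.85), and Atp5pb, the stalk subunit b of complex V (11.90, against 12.51 to 12.71). The same tumour had a high value of Cox8b (6.85, against 4.74 to 5.31). It is among the 3 tumours that lie apart on the first principal component. KO_tumor_14M replicate 5 had a low value of Sdhb, the iron-sulphur subunit of complex II (11.69, against 12.03 to 12.16), and the lowest median of complex II at 14 months (-0.26 from the control mean, against -0.07 to -0.02).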

How the results depend on the processing

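With the ages combined, 4 subunits were called, against 20.1% of all genes, and at 14 months 6, against 15.3%. The counts of the alternatives stand here without the share of all genes called in the same fit. That share moves with the setting too, so a shift in a count need not be one of the subunits alone. The count was 12 with limma array weights, 15 without the 3 tumours that lie apart, 8 with no age term, 1 with the numbered arrays alone (those with a number in the title), and 0 without both nearly identical controls, at an adjusted p under 0.01 or with a change of at least 2-fold. Leaving out each array in turn gave 1 to 11, with 11 without KO_tumor_14M replicate 4, 10 without KO_tumor_11M replicate 2 and 1 without control_liver_11M replicate 1 or 2 or control_liver_14M replicate 1. At 11 months the count of 0 became 3 without the 3 tumours that lie apart and stayed at 0 in the other 25 alternatives. At 14 months, where 6 were called, it was 14 with array weights, 11 without the 3 tumours, 3 with probe sets averaged per gene or quantile normalisation repeated, 2 with a trend and robust spread, 1 with KO_tumor_14M replicates 1 and 2 averaged, 0 without both nearly identical controls, with the numbered arrays alone, at an adjusted p under 0.01 or at 2-fold, and 0 to 8 with each array left out. The cause of these shifts was not tested, beyond the fewer arrays or stricter thresholds they use. The 3 comparisons between ages gave 0 calls in all 77 alternatives. The medians of the 5 complexes moved by less than 1 SD over tumours in all 120, and 7 of these values in 4 complexes had the opposite sign. These were complex I (0.06) and complex III (0.03) without the 3 tumours that lie apart, complex IV without KO_tumor_11M replicate 3 (-0.03) or control_liver_11M replicate 1 (-0.02), and complex V without KO_tumor_11M replicate 3 (-0.05), without both nearly identical controls (-0.02) or with the numbered arrays alone (-0.02). Of the complex I assembly factors, counted after the data had been seen, 9 were lower, 4 without both nearly identical controls and 5 to 10 with each array left out. Of 1386 values of single subunits, 1218 stayed on the same side of the threshold, 114 lost their call and 54 gained it. The sign was the opposite one in 47 values of 19 results, none of them called with or without the alternative and none larger than 0.29 in size. No paired analysis was possible because replicate numbers follow sample order and pair no samples. Background correction, slide and scan date could not be varied from these values.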
